A study of Mus musculus with 9 samples.

Results

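The genes described here are 10 ephrin ligands and Eph receptors listed for suture boundaries, 5 of each kind: the ligands Efna2, Efna4, Efnb1, Efnb2 and Efnb3 and the receptors Epha3, Epha4, Epha7, Ephb2 and Ephb3. They were read by name from a gene expression table of 43539 identifiers with values, and all 10 were present and were among the 18714 genes tested. They belong to a family of 22 genes, 8 ephrins and 14 Eph receptors. The list was drawn up by gene name, not by the measured values, though with earlier results of these data known.

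Libraries were made from mouse embryos of a mixed strain at E14.5, when cranial bone formation begins. The MCAGF8 cranial vault was the tissue between skin and brain of Msx2Cre; CAGFgf8 mutant embryos, in which Cre removes a stop cassette from an Fgf8b cDNA under the CAG promoter. Msx2-Cre acts in the surface ectoderm of the head and not in the mesenchyme below it, and the skin was peeled off before the tissue was taken. Both control tissues, cranial vault and cranial base, came from embryos labelled wildtype, which are Cre-negative offspring of the same cross and therefore carry the CAGF8 allele with its stop cassette in place. The control cranial base was the cartilaginous part of the skull floor, collected after the brain had been removed. Control vault and control base were thus both taken from the control embryos, so their libraries may share animals. Which embryos went into which pool is not stated, and the fit treated all libraries as independent. In each group, RNA from 9 tissue samples was combined into 3 pools of 3, so there are 3 libraries per group and 9 in all, and every error below is the spread between pools. In such bulk tissue, fewer cells of a type and less RNA per cell cannot be told apart.

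Ephrins are ligands held at the cell surface and Eph receptors are receptor tyrosine kinases, so that signals pass where neighboring cells touch. Ephrin-A proteins are held by a lipid anchor and bind mainly EphA receptors, whereas ephrin-B proteins span the membrane, bind mainly EphB receptors and also Epha4, and can signal into the cell that carries them. Contact between cells with unlike ephrins and Ephs makes them repel or sort apart, which keeps boundaries between tissues. In the skull, Efna4 and Epha4 are known from the coronal suture, where they act with Twist1 at the border between osteogenic and non-osteogenic cells, and EFNB1 is the gene mutated in craniofrontonasal syndrome, which includes coronal synostosis.

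Of the 10 genes, Efnb1, Efnb3 and Epha7 were the ones called different in any comparison, and sequence before the annotated start of Efnb1 and Epha7 is printed here. The differences between libraries by GC content that are given below concern annotated transcripts, not these windows. The sequences are from RefSeq on GRCm38.p6, both on the plus strand, at chrX:99135811-99136060 for Efnb1 and chr4:28812881-28813130 for Epha7, and each ends at the base before the RefSeq start site. For Epha7 this is also the GENCODE start used below (28813131). For Efnb1 the GENCODE start (99136130) lies further downstream. Capitals mark CG dinucleotides.
Efnb1: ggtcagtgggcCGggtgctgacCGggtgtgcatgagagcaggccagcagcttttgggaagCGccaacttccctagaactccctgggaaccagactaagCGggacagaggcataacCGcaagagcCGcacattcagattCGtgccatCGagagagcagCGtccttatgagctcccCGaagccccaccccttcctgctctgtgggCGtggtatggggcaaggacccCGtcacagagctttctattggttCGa
Epha7: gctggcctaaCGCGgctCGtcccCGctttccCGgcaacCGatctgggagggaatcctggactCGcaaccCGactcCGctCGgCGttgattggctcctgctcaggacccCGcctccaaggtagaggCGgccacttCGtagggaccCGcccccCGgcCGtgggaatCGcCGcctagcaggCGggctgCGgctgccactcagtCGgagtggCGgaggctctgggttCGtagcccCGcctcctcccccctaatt
The Efnb1 window held 13 CG dinucleotides at a GC content of 60.0%, and the Epha7 window held 25 at 69.2%, against medians of 6 and 52.4% over 32851 windows of 250 bases. The GC-rich start of Epha7 stands before a transcript of low GC content, 43.2% over its annotated exons, while the exons of Efnb1 had 57.6%. RefSeq windows were found for 9 of the 10 genes, all except Efnb3, and all 9 held more CG dinucleotides than the median. The E-box CANNTG, which reads the same on both strands and is bound by basic helix-loop-helix factors such as Twist1, was found in 3 of the 9 windows (those of Efnb2, Ephb2 and Ephb3) and in 66.2% of all windows. The ETS motif CCGGAAGT, searched on both strands, was found in 0 of the 9 and in 2.88% of all windows. These counts describe the letters of the windows alone.

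Values are FPKM, fragment counts divided by transcript length and by library size as derived by Cufflinks, so levels can be compared between genes per length. The FPKM of a library summed to between 793249 and 1315981. Across genes, which are not independent replicates, libraries of the same group correlated with Pearson's r of 0.970 to 0.974 in the control vault, 0.959 to 0.980 in the MCAGF8 vault and 0.904 to 0.946 in the control base. Control base libraries were therefore less alike than those of the other groups. Fgf8, the gene that the CAGF8 allele adds in the skin, was at 9.43 to 19.5 FPKM in the MCAGF8 vault, 3.01 to 13.5 in the control vault and 3.78 to 17.4 in the base. It thus overlapped between the groups in tissue taken after the skin was peeled off. Skin epidermis genes were still measured there, with sums over 10 genes of 412 to 1042 FPKM in the MCAGF8 vault, 22.7 to 115 in the control vault and 81.0 to 712 in the base. The part of such skin in the Fgf8 values was not tested. The base was marked by Col10a1, a collagen of hypertrophic cartilage, at 74.2 to 658 FPKM against 0.945 to 2.05 in the control vault, but Col2a1, the main cartilage collagen, was at 163 and 268 FPKM in control base replicates 1 and 3, below the 373 to 462 of the control vault, and at 2292 in replicate 2.

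All 10 genes were expressed in every library, from 10.001 FPKM for Epha4 in a control base library to 156 FPKM for Efnb1 in a MCAGF8 library. Mean levels placed the ephrin-B ligands on top in the same order in all 3 groups, Efnb1 above Efnb3 above Efnb2, and Epha4 at the bottom. Efnb1 was higher than Efnb3 in every library, whereas Efnb3 was above Efnb2 in 2 of 3 libraries of each group. In the control vault, Efnb1 (97.5 ± 9.82 FPKM, SD, n = 3) stood clear of Efnb3 (74.5 ± 6.50), and Efna2 (28.2 ± 6.04) clear of Epha4 (12.1 ± 1.44), while the ranges of the other 7 of 9 neighboring pairs in the order overlapped. In the MCAGF8 vault 8 of 9 neighboring pairs overlapped, with a gap between Efnb2 (68.1 ± 3.23) and Ephb3 (53.8 ± 7.99), and in the control base all 9 did. The order of the middle genes is thus not resolved by 3 libraries. Together the 10 genes made up 70.0% ± 2.38 of the FPKM of the whole family in the control vault, 69.0% ± 0.591 in the MCAGF8 vault and 66.5% ± 1.53 in the control base (SD, n = 3).

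**Figure D1:**
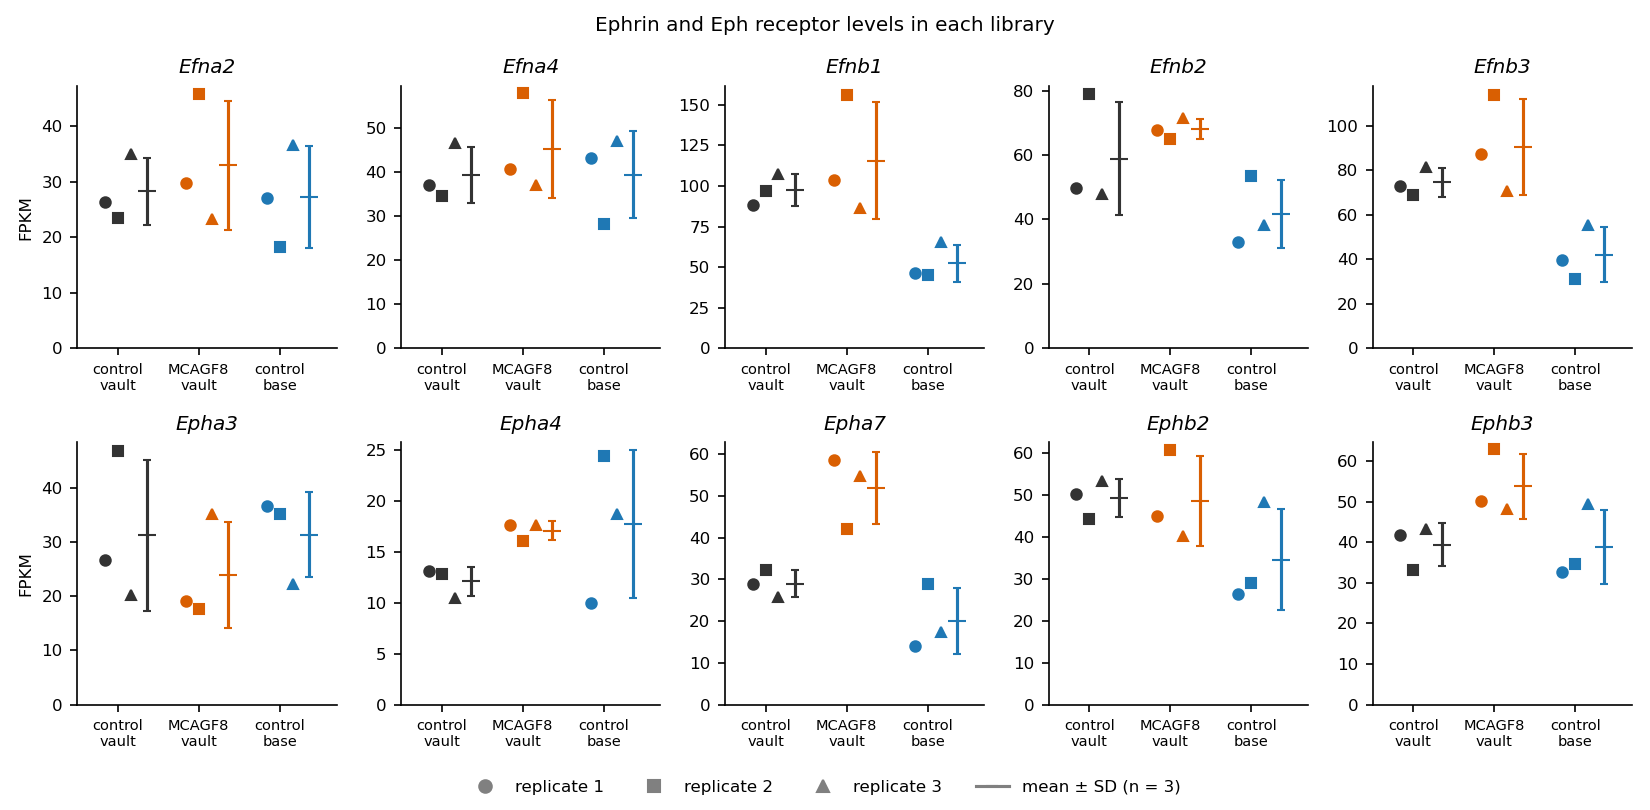
FPKM of the 10 genes in each library, with 1 panel per gene, groups along the horizontal axis, symbols for the replicate and bars for the mean and SD of 3 libraries. Efnb1 and Efnb3 lay lower in every control base library than in any vault library, and Epha7 lay higher in every MCAGF8 library than in any control library.

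Efnb1 encodes the ephrin-B1 ligand and lies on the X chromosome (99136130-99148991, GENCODE M21 on GRCm38). Its FPKM in replicates 1, 2 and 3 was 88.1, 96.8 and 108 in the control vault, 104, 156 and 86.7 in the MCAGF8 vault, and 46.3, 45.3 and 65.5 in the control base. Every base library was below every vault library, while the vault groups overlapped, with MCAGF8 replicate 3 below all control vault libraries and MCAGF8 replicate 2 above them. The mean in the MCAGF8 vault was 2.20 times that of the control base, a difference of 1.10 on the log2(FPKM + 1) scale (SE 0.24, adjusted p = 0.0329 by limma with Benjamini-Hochberg adjustment over all genes tested). The control base was lower than the control vault by a difference of -0.90 (SE 0.24), which did not pass the threshold (adjusted p = 0.119). Between the vaults the difference was 0.20 (SE 0.24, 95% interval -0.34 to 0.75), and it was -0.034 without MCAGF8 replicate 2.

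Efnb3, the ephrin-B3 ligand known from midline guidance of axons (chromosome 11, 69554092-69560205), followed the same course. Its FPKM was 73.2, 68.8 and 81.6 in the control vault, 87.2, 114 and 70.7 in the MCAGF8 vault, and 39.9, 31.2 and 55.3 in the control base. Again no base library reached a vault library, and the vault groups overlapped. The MCAGF8 vault mean was 2.15 times that of the base, with a log2 difference of 1.10 (SE 0.24, adjusted p = 0.0336). The base was 0.84 below the control vault on the log2 scale, written as a difference of -0.84 (SE 0.24, adjusted p = 0.142), and the vaults differed by 0.25 (SE 0.24, 95% interval -0.29 to 0.80). The call of Efnb1 and Efnb3 against the base was lost without MCAGF8 replicate 1 (adjusted p = 0.111 and 0.128 by limma), and that of Efnb3 also without MCAGF8 replicate 2 (0.116). Both calls were also lost when only the compared groups were fitted and in a fit without moderation, and that of Efnb3 with a replicate block. The log2 differences stayed between 0.86 and 1.31 over all alternatives for both genes.

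Efnb2, the ephrin-B2 ligand that marks arterial endothelium and is also made in mesenchyme (chromosome 8, 8617434-8661242), was at 49.9, 79.1 and 47.8 FPKM in the control vault, 67.7, 65.1 and 71.5 in the MCAGF8 vault, and 33.1, 53.6 and 38.4 in the control base. The MCAGF8 libraries were close to each other and all above the base, but control vault replicate 2 was above all of them, and base replicate 2 was above 2 of the control vault libraries. The log2 difference between MCAGF8 vault and base was 0.72 (SE 0.24, adjusted p = 0.132), which did not pass.

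The ephrin-A ligands of the list had similar means in the 3 groups. Efna4, known from the coronal suture (chromosome 3, 89333390-89338028), was at 37.0, 34.6 and 46.7 FPKM in the control vault, 40.7, 58.1 and 37.2 in the MCAGF8 vault, and 43.3, 28.2 and 47.0 in the control base. The groups overlapped throughout, and the highest and the lowest of the 9 values were MCAGF8 replicate 2 and base replicate 2. The log2 differences were 0.18 between the vaults (95% interval -0.38 to 0.74), 0.20 between MCAGF8 vault and base (-0.36 to 0.76) and -0.019 between base and control vault (-0.58 to 0.54). Efna2, a ligand studied mainly in neural maps (chromosome 10, 80179482-80190010), was at 26.2, 23.4 and 35.0 FPKM in the control vault, 29.7, 45.8 and 23.3 in the MCAGF8 vault, and 27.0, 18.2 and 36.6 in the control base. It too overlapped in every comparison, with log2 differences of 0.18, 0.26 and -0.082 in the same order and an SE of 0.31. The intervals leave room for differences of up to about 0.96 on the log2 scale in Efna2 that these libraries could not show.

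Epha7, an EphA receptor for several ephrin-A ligands (chromosome 4, 28813131-28967499), had the largest difference among the 10 genes in the comparisons that involve the MCAGF8 vault. Its FPKM was 29.0, 32.3 and 25.7 in the control vault, 58.6, 42.2 and 54.8 in the MCAGF8 vault, and 14.0, 28.9 and 17.3 in the control base. All MCAGF8 libraries were above all control libraries, and base replicate 2 fell within the control vault range while the other base libraries were below it. Against the base, the MCAGF8 mean was 2.59 times as high and the log2 difference was 1.38 (SE 0.26, adjusted p = 0.0179). Against the control vault, the mean was 1.79 times as high and the log2 difference was 0.81 (SE 0.26, 95% interval 0.23 to 1.39), which did not pass after adjustment (adjusted p = 0.433 by limma). Over 20 alternatives this difference ranged from 0.72 to 0.98. Its adjusted p by limma stayed at 0.115 or higher when any 1 library was left out. The lowest value of all, 0.0801, came once a trend with transcript length and GC content was removed, an alternative added after the data were seen.

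Epha4 can bind ephrins of both classes and is the receptor studied with Efna4 in the coronal suture (chromosome 1, 77367185-77515088). Its FPKM was 13.1, 12.8 and 10.5 in the control vault, 17.6, 16.1 and 17.6 in the MCAGF8 vault, and 10.001, 24.5 and 18.7 in the control base. The MCAGF8 libraries were all above the control vault libraries, and the base libraries ran from below the control vault to above the MCAGF8 vault. The log2 difference between the vaults was 0.47 (SE 0.29, 95% interval -0.17 to 1.11, adjusted p = 0.969), so it did not pass. Epha3, a receptor for ephrin-A ligands (chromosome 16, 63543534-63864175), was at 26.7, 46.8 and 20.2 FPKM in the control vault, 19.1, 17.6 and 35.2 in the MCAGF8 vault, and 36.6, 35.1 and 22.3 in the control base. Its 3 groups overlapped, and it was the gene of the 10 with the widest error (SE 0.36). It was also the only one of the 10 with a negative difference between MCAGF8 vault and base, -0.41 (95% interval -1.21 to 0.40).

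Ephb3 and Ephb2 are receptors for the ephrin-B ligands. Ephb3 (chromosome 16, 21204755-21223305) was at 41.7, 33.2 and 43.2 FPKM in the control vault, 50.1, 62.9 and 48.3 in the MCAGF8 vault, and 32.5, 34.7 and 49.4 in the control base. The MCAGF8 libraries were all above the control vault, and base replicate 3 reached into their range. The log2 differences were 0.44 between the vaults (SE 0.21, adjusted p = 0.842) and 0.47 between MCAGF8 vault and base (SE 0.21, adjusted p = 0.251), and neither passed. Ephb2 (chromosome 4, 136647539-136835988) was at 50.2, 44.4 and 53.4 FPKM in the control vault, 45.2, 60.8 and 40.2 in the MCAGF8 vault, and 26.4, 29.0 and 48.4 in the control base. The vault groups overlapped with a log2 difference of -0.036 (95% interval -0.60 to 0.53), and base replicates 1 and 2 were below every vault library while replicate 3 was not.

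The word called stands for an adjusted p under 0.1 together with an unadjusted p under 0.05. Against the control base, 3 of the 10 were called, all higher in the MCAGF8 vault (Efnb1, Efnb3 and Epha7), where 8.39% of all genes tested were called in either direction and 2.98% were called higher. At the unadjusted p alone, Efnb2 and Ephb3 joined them, making 5 of 10 against 19.6% of all genes. The libraries did not overlap for 4 of 10 (Efnb1, Efnb2, Efnb3 and Epha7), against 21.9% of all genes. The median log2 difference of the 10 was 0.49, and that of all genes was -0.066.

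Between the MCAGF8 vault and the control vault, 0 of the 10 were called by limma, where 0.604% of all genes were called, and 1 of 10 (Epha7) passed the unadjusted p, against 6.34% of all genes. The libraries did not overlap for 3 of 10 (Epha4, Epha7 and Ephb3, all higher in the MCAGF8 vault), against 19.2% of all genes. Of the 10 differences 8 were above 0, with a median of 0.22 against -0.0088 for all genes. Between the control base and the control vault, 0 of 10 were called by limma against 3.06% of all genes, and 2 of 10 (Efnb1 and Efnb3) passed the unadjusted p and did not overlap, both lower in the base, against 12.8% and 15.5% of all genes. The median of the 10 was -0.28, against 0.067 for all genes. The 3 comparisons share libraries, so their differences are not independent of each other: the MCAGF8 vault and the control vault were both set against the same base libraries. When every library was scaled to the same FPKM sum, the median of all genes moved to 0.13, 0.11 and 0.033 in the order MCAGF8 vault against control vault, MCAGF8 vault against base, and base against control vault. Under that scaling Ephb2 changed sign between the vaults, to 0.13, which is the median of all genes.

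**Figure D2:**
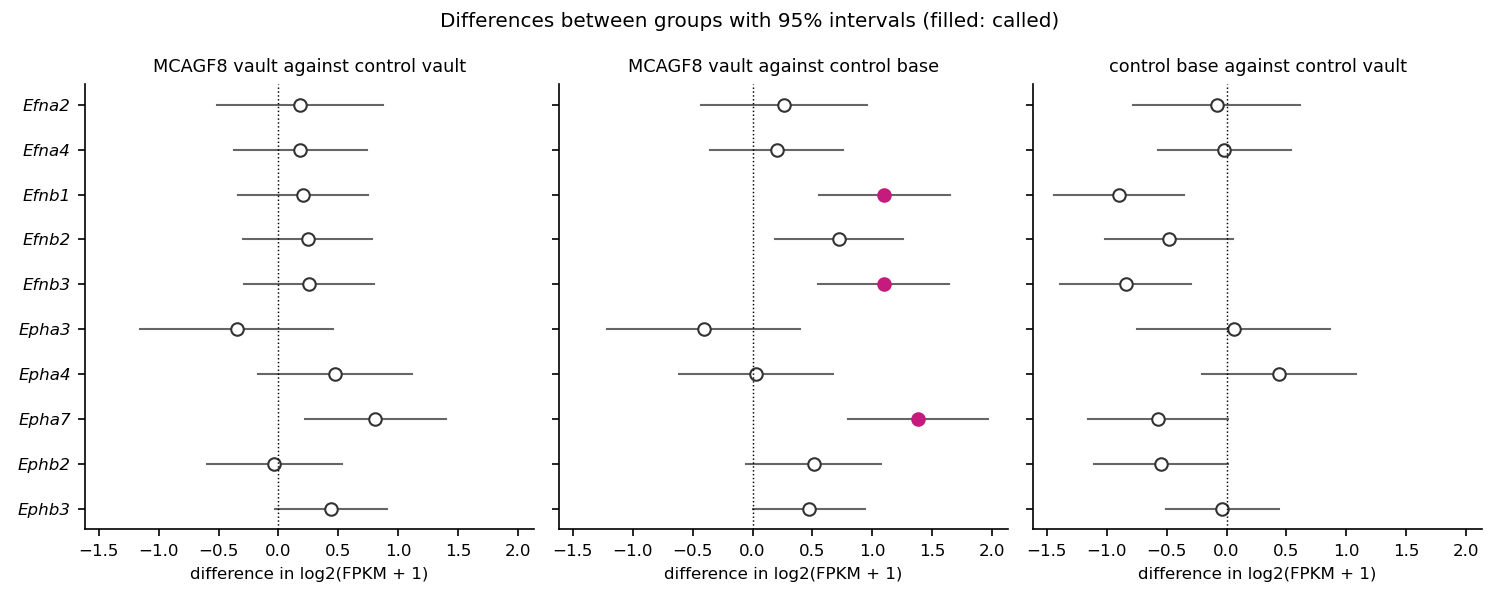
Differences in log2(FPKM + 1) of the 10 genes in the 3 comparisons, with points for the fitted difference, lines for its 95% interval and filled points for called genes. Efnb1, Efnb3 and Epha7 are called higher in the MCAGF8 vault than in the control base, and no gene is called in the other comparisons.

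Summed by class, the ephrin-B ligands separated the base from both vaults. The 3 ephrin-B genes added up to 211, 245 and 237 FPKM in the control vault, 259, 335 and 229 in the MCAGF8 vault, and 119, 130 and 159 in the control base. The base sums were below all vault sums, and the vault sums overlapped. As a share of the FPKM of all 8 ephrins, ephrin-B made up 59.9% ± 4.56 in the control vault, 59.3% ± 0.939 in the MCAGF8 vault and 49.7% ± 4.57 in the control base (SD, n = 3), and no base library (45.9% to 54.7%) reached the lowest vault library (56.5%). The 5 ephrin-A genes of the family gave sums of 155 ± 25.9, 188 ± 29.7 and 139 ± 31.2 FPKM in control vault, MCAGF8 vault and base, with overlapping libraries. On the receptor side, the share of EphB in the FPKM of all 14 Eph genes was 67.7% ± 6.78, 66.4% ± 8.57 and 63.0% ± 7.42 in the same order, differences smaller than the spread between pools. With 3 libraries against 3, an exact two-sided permutation test of a single sum cannot go below 0.10, so these sums are given without a test.

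**Figure D3:**
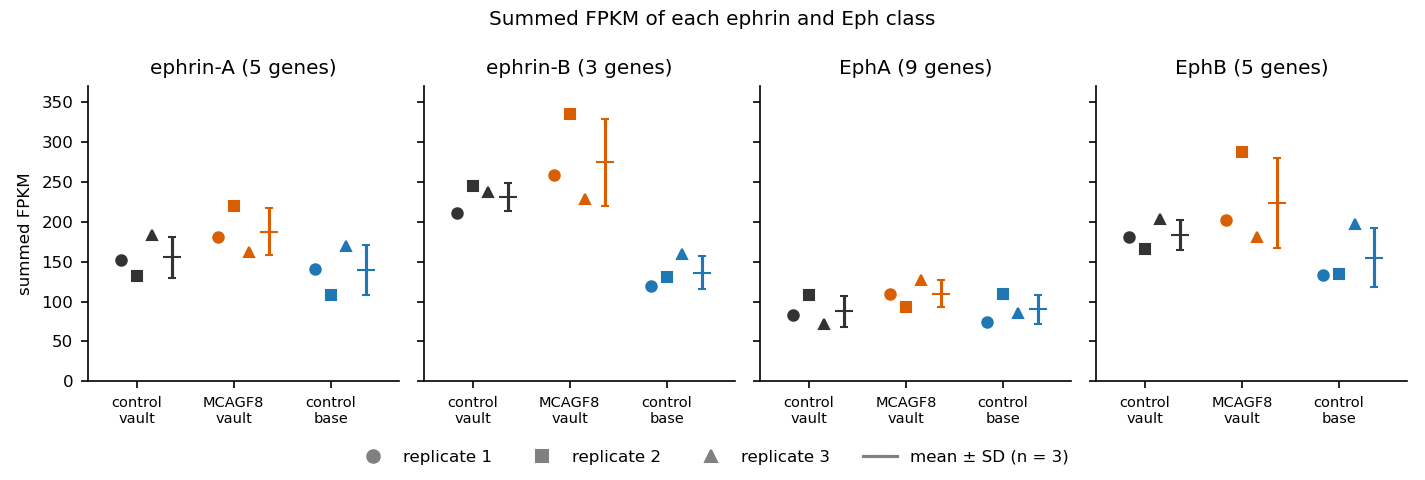
Summed FPKM of the ephrin-A, ephrin-B, EphA and EphB genes of the whole family in each library, with symbols for the replicate and bars for the mean and SD of 3 libraries. The ephrin-B panel shows the 3 control base libraries at 119 to 159 FPKM, below all vault libraries.

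Ratios within a library set aside how far a whole library is scaled, and 5 pairs were examined, chosen with the levels known. The ratio of Ephb3 to Ephb2, receptors with similar GC content (57.4% and 55.9%), was 0.832, 0.749 and 0.808 in the control vault, 1.11, 1.04 and 1.20 in the MCAGF8 vault, and 1.23, 1.20 and 1.02 in the control base. The control vault was thus the group in which Ephb2 was above Ephb3, in every library, and in the other 6 libraries Ephb3 was above Ephb2. The ratio of Epha7 to Epha3, both with exons of 43.2% GC, was 1.09, 0.691 and 1.27 in the control vault, 3.07, 2.40 and 1.56 in the MCAGF8 vault, and 0.381, 0.823 and 0.776 in the base. All MCAGF8 libraries had the higher ratio. The ratio of Efnb1 to Efnb3 differed little, at 1.31 ± 0.102 in the control vault, 1.26 ± 0.0952 in the MCAGF8 vault and 1.27 ± 0.162 in the base (SD, n = 3). For Efna4 to Epha4, the ligand and receptor of the coronal suture, the ratio was 3.33 ± 0.982, 2.68 ± 0.818 and 2.66 ± 1.60, and for Efnb1 to Efnb2 it was 1.75 ± 0.515, 1.71 ± 0.612 and 1.32 ± 0.436, with overlapping groups in both cases.

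Within each group, the 10 genes divided in the same way by library. Efna2, Efna4, Efnb1, Efnb3, Ephb2 and Ephb3, whose exons have 55.9% to 58.5% GC, were highest in control vault replicate 3, in MCAGF8 replicate 2 and in control base replicate 3. The other 4 genes, Efnb2 (53.2% GC), Epha4 (47.5%), Epha3 and Epha7 (43.2% each), were highest in none of those 3 libraries, and all 4 were lowest of their group in MCAGF8 replicate 2. The same 3 libraries had the highest slopes with GC content in their groups over all genes, at 0.053, 0.16 and 0.16 per SD of GC content. Slopes in the other 6 libraries were -0.13 to -0.012. Each slope was fitted to the library's difference in log2(FPKM + 1) from the mean of the 9 libraries, with length in the same model. A negative slope is thus relative to that mean. Across all genes with a GC content, MCAGF8 replicate 2 was the highest of its group for 64.7% of genes in the upper tercile of GC content and for 26.4% of those in the lower tercile. Efnb1 in MCAGF8 replicate 2 was 1.64 times the mean of the other MCAGF8 libraries, Efna2 was 1.73 times and Epha3 was 0.646 times. With the trend on length and GC content removed from each library, an alternative added after the data were seen, the SE fell from 0.24 to 0.16 for Efnb1, from 0.24 to 0.14 for Efnb3 and from 0.26 to 0.14 for Epha7. The genes called were then 6 of 10 between MCAGF8 vault and base (Efna4, Efnb1, Efnb2, Efnb3, Epha7 and Ephb3, all higher), 1 of 10 between the vaults (Epha7) and 3 of 10 between base and control vault (Efnb1, Efnb3 and Epha7, all lower in the base). Differences moved as well as the SE. The median of all genes went from -0.066 to 0.078 between MCAGF8 vault and base. It went from -0.0088 to 0.015 between the vaults and from 0.067 to -0.049 between base and control vault. Against the base, Efna4 was at 0.20 in the main fit and at most 0.49 over all alternatives. The removal also raised the calls over all genes, from 1571 to 2997, from 113 to 198 and from 573 to 1656. The first of each pair is out of 18714 genes and the second out of the 18568 with a known length and GC content. The calls among the 10 genes are thus to be read beside this higher share of all genes.

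**Figure D4:**
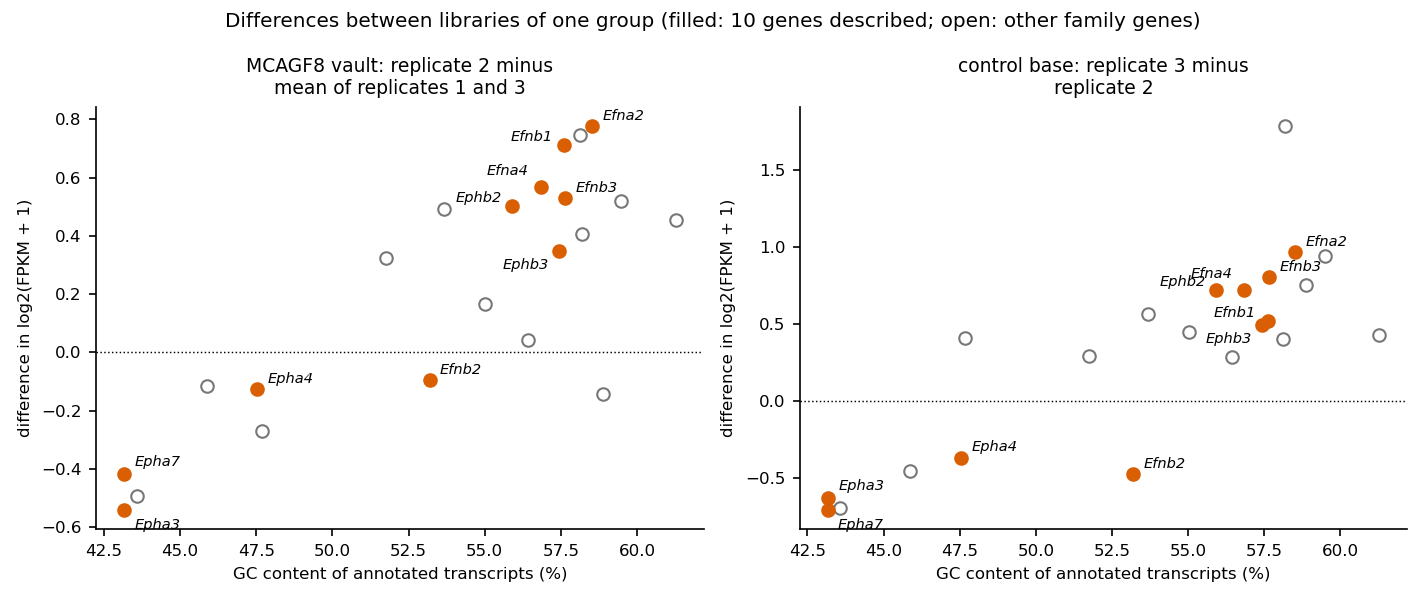
Difference in log2(FPKM + 1) between libraries of the same group against the GC content of the annotated exons, for MCAGF8 replicate 2 minus the mean of replicates 1 and 3 (left) and control base replicate 3 minus replicate 2 (right), with filled points for the 10 genes and open points for the other family genes. Genes of 55.9% GC or more among the 10 lie above 0 and the 4 of lower GC content lie below 0 in both panels.

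Of the 12 family genes outside the list, 11 were tested and Epha6 was too low to be tested. Efna5, an ephrin-A ligand that binds Epha7 and other EphA receptors, was the only one called. Its FPKM was 41.2, 36.4 and 42.0 in the control vault, 71.3, 61.4 and 62.2 in the MCAGF8 vault, and 14.0, 26.9 and 19.4 in the control base, so that the 3 groups did not overlap at all. It was called higher in the MCAGF8 vault than in the base, by a log2 difference of 1.69 (SE 0.22, adjusted p = 0.00584), and lower in the base than in the control vault, by -0.998 (SE 0.22, adjusted p = 0.0686), a call that 12 of 20 alternatives did not keep. Between the vaults Efna5 differed by 0.69 (SE 0.22, adjusted p = 0.446). Epha7 and Efna5 were thus both highest in the MCAGF8 vault and lowest on average in the base. Ephb4, the receptor for ephrin-B2 on venous endothelium, was the highest Eph receptor, at 80.6 ± 9.40 FPKM in the control vault, 102 ± 33.0 in the MCAGF8 vault and 64.5 ± 10.6 in the base, with no call. Epha1, at 2.61 ± 0.120 FPKM in the control vault, 5.39 ± 1.47 in the MCAGF8 vault and 5.09 ± 1.14 in the base, was lower in every control vault library than in any other library, also with no call. The same held for Ephb1, at 2.60 ± 0.629, 4.07 ± 0.812 and 5.03 ± 1.04 FPKM in the same order.

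Among 24 genes listed as partners of Eph signaling, such as the protease Adam10, the exchange factors Ngef, Vav2 and Vav3 and the adaptors Nck2 and Grip1, 0 were called between the vaults and 0 between base and control vault by limma, with 3 passing the unadjusted p in each. Over all genes, 0.604% and 3.06% were called in that order, and 6.34% and 12.8% passed the unadjusted p. Against the base 1 of 24 was called, where 8.39% of all genes were called, so the list was not above that share. It was Grip2, a PDZ adaptor that can bind ephrin-B tails, lower in the MCAGF8 vault by -1.62 on the log2 scale (SE 0.32, adjusted p = 0.0203) at mean levels of 0.366 and 3.22 FPKM. The median log2 difference of the 24 was 0.16, 0.026 and -0.012 in the order MCAGF8 vault against control vault, MCAGF8 vault against base, and base against control vault. Of 18 other genes listed for suture boundaries and their mesenchyme, some of which the study had picked from these libraries, 11 were called between MCAGF8 vault and base. The share over all genes was 8.39%. Alx4, Axin2, En1, Lmx1b, Msx1, Msx2, Notch2, Prrx1, Twist1 and Zic1 were higher in the MCAGF8 vault and Gli1 was lower, with a median log2 difference of 1.12 for the 18. Twist1, the regulator tied to Efna4 and Epha4 in the coronal suture, differed by 1.29 (SE 0.36, adjusted p = 0.0776), and Msx2 by 3.19 (SE 0.20, adjusted p = 0.000122). Between the base and the control vault 6 of the 18 were called, against 3.06% of all genes. All were lower in the base (Alx4, En1, Lmx1b, Msx2, Prrx1 and Zic1), and the median of the 18 was -0.43. Between the vaults 0 of the 18 were called by limma, against 0.604% of all genes, 3 passed the unadjusted p, against 6.34%, and the median was 0.35. The libraries did not overlap for 10 of the 18 (8 higher and 2 lower in the MCAGF8 vault), against 19.2% of all genes.

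Marker genes of other cell types moved with these groups. The summed FPKM of 10 skeletal muscle genes was 1940 to 12279 in the base, 1056 to 6529 in the control vault and 22.6 to 270 in the MCAGF8 vault. Over 9 neuron genes the sums were 502 to 1650 in the base, 115 to 188 in the control vault and 156 to 206 in the MCAGF8 vault, and over 7 Schwann cell genes they were 147 to 322, 34.3 to 138 and 16.7 to 29.0. Gap43 made up much of the neuron sums, with means of 243, 104 and 111 FPKM in the same order. By contrast, Dcx was at 21.0, 6.99 and 0.456, Elavl3 at 13.4, 4.04 and 0.213 and Elavl4 at 19.0, 3.40 and 0.874, all lowest in the MCAGF8 vault. Muscle, neuron and Schwann cell sums were therefore higher in every base library than in any MCAGF8 library, the comparison in which Efnb1, Efnb3 and Epha7 were called. Over 8 neural progenitor genes the sums were 155 to 240 in the base, 93.1 to 179 in the control vault and 42.5 to 52.2 in the MCAGF8 vault. Over 10 skin epidermis genes they were 81.0 to 712 in the base, 22.7 to 115 in the control vault and 412 to 1042 in the MCAGF8 vault, so epidermal genes were higher in every MCAGF8 library than in any control vault library. Meninges (8 genes) ran from 216 to 664, 572 to 650 and 496 to 1048 in the same order and endothelium (9 genes) from 274 to 335, 323 to 373 and 368 to 527. Osteoblast genes (10) summed to 989 to 2371 in the base, 4015 to 7211 in the control vault and 2242 to 2950 in the MCAGF8 vault, chondrocyte genes (10) to 733 to 8387, 1477 to 2075 and 2137 to 3945, and erythroid genes (8) to 4484 to 9431, 11232 to 15624 and 8792 to 13080. The osteoblast sum followed Col1a1, whose means were 714, 3417 and 2430 FPKM in the same order. Other osteoblast genes differed from it: Ibsp was at 342, 1231 and 24.9 and Ifitm5 at 82.4, 196 and 12.1, both lowest in the MCAGF8 vault. Of all these markers, Bglap2, an osteocalcin gene on the osteoblast list, was the only one listed at 0 in all libraries of a group, the MCAGF8 vault, and 4 of the 9 neuron genes and 5 of the 8 neural progenitor genes had a mean under 1 FPKM in the MCAGF8 vault. The part of these cell types in the ephrin and Eph differences was not tested.

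For Efna4, Epha4 and Efnb1, the genes outside the family with the most similar pattern over the 9 libraries were sought among 12933 tested genes with a mean of at least 5 FPKM, by Pearson's r of log2(FPKM + 1). Efnb1 was most like Tsku (r = 0.995), Tapbp (0.993) and Btd (0.990), which were all lower on average in the base, at 29.3 ± 2.91, 33.4 ± 7.19 and 30.4 ± 5.93 FPKM, than in the control vault, at 43.1 ± 2.13, 65.7 ± 9.51 and 46.1 ± 5.03. Efna4 was most like Bckdha (r = 0.993), R3hdm4 (0.988) and Marcksl1 (0.987), all with similar means in the 3 groups and the highest spread in the MCAGF8 vault. Epha4 was most like Mtmr10 (r = 0.981), Slc27a1 (0.968) and Agbl5 (0.957). The 9 points share the same libraries and their GC slopes.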

How the data were processed

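RNA was measured in 9 libraries of pooled tissue. The authors sequenced stranded mRNA as single-end reads, aligned these by gSNAP and used Cufflinks for FPKM, and the deposited FPKM are normalised for length and depth. Genome build and program versions were not given in the sources used here. Depth is unknown, so no counting interval is given. Rows with a repeated identifier (63) were added up, and 9 genes with a placeholder in 17 cells were left out. Symbols, positions and exon GC content came from GENCODE M21. Values were tested as log2(FPKM + 1), which understates changes of low genes, for 18714 genes whose mean FPKM was 0.5 or more, by the lmFit, contrasts.fit and eBayes (trend) steps of limma 3.58.1 under R 4.3.3, two-sided, over all 9 libraries with 1 mean per group. The fit was tested on simulated data. Fold ratios are ratios of mean FPKM. The 10 genes and all lists were chosen with earlier results of these data known. All 10 are named with values; of other family genes those called or used to describe a class, and of other lists the genes called, are named; for Efna4, Epha4 and Efnb1 the 3 most correlated genes are. Ephb4, Epha1 and Ephb1 were chosen after their values were seen. Alternatives were a pseudocount of 0.1, other filters, scalings, fits and thresholds, a replicate block, leaving out each library, and, added after the data were seen, removal of a loess trend (span 0.5) with length and GC content. Tables used Python 3.11.15, pandas 2.3.3 and numpy 2.4.6.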

Additional observations from a re-analysis of the deposited data

How the results depend on the processing

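The numbers of genes called are given in the order MCAGF8 vault against control vault, MCAGF8 vault against base, and base against control vault, which were 113, 1571 and 573 genes and 0, 3 and 0 of the 10. They were 191, 1667 and 647 with a pseudocount of 0.1, 66, 1423 and 475 without a filter, and 71, 834 and 291 with a mean FPKM of at least 5, always with 0, 3 and 0 of the 10. The filters and the trend removal changed how many genes were tested, so the counts of genes are not shares of the same total. Quantile normalization gave 110, 1963 and 626 and equal FPKM sums 107, 1605 and 456, both with 0, 3 and 2 of the 10. A fit to the compared groups only gave 174, 875 and 108 (0, 1 and 0 of the 10), and a linear model without moderation 0, 869 and 257 (0, 1 and 0). At an adjusted p under 0.05 there were 35, 941 and 255 (0, 3 and 0), at the unadjusted p 1186, 3675 and 2396 (1, 5 and 2), and with the length and GC trend removed 198, 2997 and 1656 (1, 6 and 3). Leaving out a library gave 11 to 231, 559 to 4580 and 132 to 1322 genes, and 0, 1 to 4 and 0 to 1 of the 10; the highest counts of genes came without control base replicate 2, and the lone call of a member between base and control vault came without base replicate 1 (Epha4), base replicate 2 (Epha7), base replicate 3 (Efnb3) or MCAGF8 replicate 2 (Efnb1).

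Deviations from the group means correlated by -0.55 to 0.37 for libraries of different groups with the same replicate number. For those with different numbers the range was -0.48 to 0.56. These values cannot show whether pools share embryos, since the deviations also carry each library's trend with GC content and length. A replicate block gave 19, 918 and 234 genes and 0, 2 and 0 of the 10.

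Without 1 library, differences that are small changed sign. Between the vaults Efna2 ran from -0.078 to 0.39, Efna4 from -0.0080 to 0.31, Efnb1 from -0.034 to 0.38 and Ephb2 from -0.20 to 0.089, and Ephb2 was 0.13 with equal FPKM sums. Between MCAGF8 vault and base Efna4 ran from -0.020 to 0.34, Epha1 from -0.086 to 0.25 and Epha4 from -0.31 to 0.29, and Epha4 was -0.0070 with the trend removed. Between base and control vault Efna2 ran from -0.31 to 0.17, Efna4 from -0.16 to 0.20, Epha3 from -0.20 to 0.39 and Ephb3 from -0.21 to 0.079. The cause was not tested. With 3 pools per group and unknown depth, the SE of a log2 difference was 0.21 to 0.36 for the 10 genes, which limits how small a difference could pass.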
